A study of Mus musculus with 18 samples.

Results

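Tumors of Alb-R26Met mice were compared by how much fibrillar collagen RNA they held. Of 12 advanced liver tumors in the series, 11 were ranked by the mean log2 level of Col1a1, Col1a2 and Col3a1, and the highest 5, called collagen-rich, were set against the lowest 5, called collagen-poor. The members were thus chosen by the measured levels of these 3 genes and not from the labels, and they hold 10 of the 18 samples. Tumor 9, in the middle, and tumor 2, in which Siglece took 82.9% of the values and which was kept out of the ranking, belong to neither. All mice were males of a C57 and 129Sv cross that carried R26stopMet, a conditional mouse-human chimeric Met transgene at the Rosa26 locus, and Alb-Cre, the Cre recombinase under the albumin promoter, which acts in the hepatocyte lineage. The 6 livers had this genotype too and were taken from mice without tumors, so they are no wild-type tissue. Collagen-rich and collagen-poor tumors alike came from mice of 49 to 72 weeks, and livers from mice of 52 to 71 weeks. The 10 tumors came from 9 mice, since tumor 11 (collagen-rich) and tumor 12 (collagen-poor) grew in 1 mouse. Poly-A RNA of bulk tissue was sequenced, and Alb, the albumin gene of hepatocytes, stood at 46800 or more in each of the 10 tumors and at 35680 or more in each liver.

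Type I and type III collagens are the main fibril-forming collagens of scarred liver and of tumor stroma. In liver they are made mostly by hepatic stellate cells once these turn into myofibroblasts, and by portal fibroblasts, under signals such as TGF-beta and PDGF. The chains are hydroxylated and folded in the endoplasmic reticulum, trimmed and cross-linked outside the cell, and broken down by matrix metalloproteases, which the TIMP proteins inhibit.

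Col1a1 and Col1a2 encode the pair of chains of type I collagen, and Col3a1 encodes the type III chain. They lie at chr11:94936224-94953042, chr6:4505618-4541543 and chr1:45311538-45349706 (RefSeq, GRCm38.p6). Values are TPM, a measure of transcript share corrected for length, rescaled to the same total in every sample after removal of Siglece and Gm26917. Col1a1 stood at 126.6, 110.8, 43.95, 26.92 and 28.01 in the collagen-rich tumors 10, 6, 5, 8 and 11. It stood at 26.19, 23.26, 13.71, 11.29 and 3.567 in the collagen-poor tumors 7, 1, 12, 3 and 4. Tumors 10 and 6 were thus far above the others, and tumor 4 lay at the level of livers. Col1a2 ranged from 15.14 to 63.28 in collagen-rich and from 3.567 to 13.1 in collagen-poor tumors, and Col3a1 from 25.46 to 67.37 and from 5.35 to 28.37. Livers held 1.779 to 9.214 of Col1a1, 1.779 to 7.608 of Col1a2 and 3.272 to 9.214 of Col3a1. These genes made the groups, so their means are given without a test. Col1a1 averaged 67.3 ± 47.8 against 15.6 ± 9.19 (SD, n = 5 each), Col1a2 33.6 ± 21.3 against 8.16 ± 4.05, and Col3a1 44.9 ± 19.3 against 15.002 ± 9.61.

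**Figure D1:**
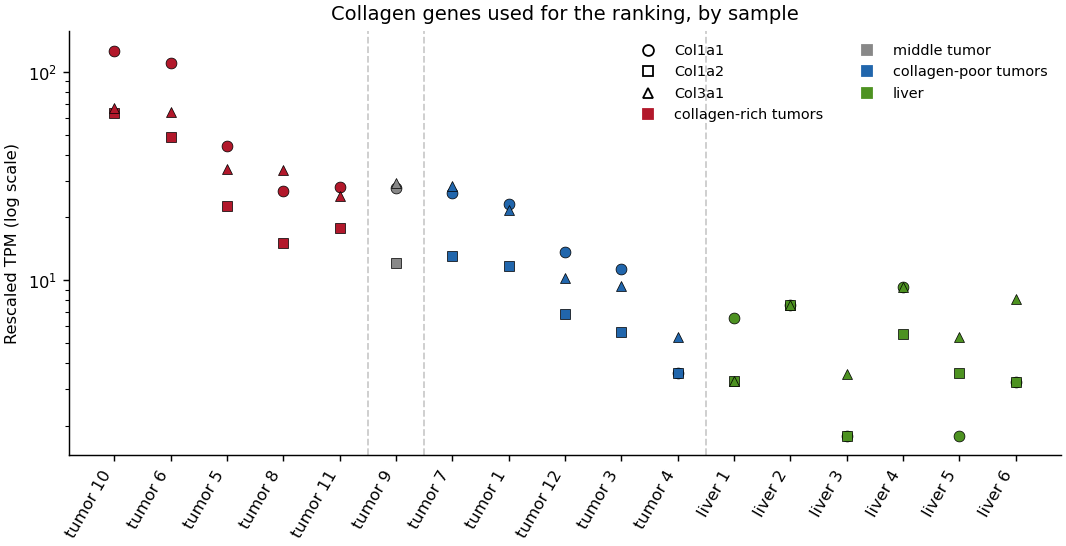
Rescaled TPM (log scale) of Col1a1, Col1a2 and Col3a1, by marker shape, in the 11 ranked tumors from the highest to the lowest score and in 6 livers, with color for the group and dashed lines between groups. Tumors 10 and 6 exceed 110 for Col1a1, and tumors 11, 9 and 7, next to the dashed lines, have nearly the same values.

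The ranking had no gap at its middle. The score, the mean of the 3 log2 values with 1 added, was 6.37, 6.15, 5.07, 4.64 and 4.61 in collagen-rich tumors and 4.49, 4.25, 3.45, 3.24 and 2.35 in collagen-poor ones. Tumor 9, left out in the middle, scored 4.49, which was 0.11 under tumor 11 and 0.0068 above tumor 7. Membership near the cut depended on the scaling. On the deposited values, before the rescaling, tumor 11 had rank 8 and moved to the collagen-poor side, and tumor 9 had rank 5. After scaling by a trimmed mean of M values, which sets the middle part of the genes equal between samples, tumor 7 had rank 4 and tumor 8 rank 7, so that they changed sides. Tumors 10, 6 and 5 were on the collagen-rich side and tumors 12, 3 and 4 on the collagen-poor side in these rankings and in one on Col1a1 alone. Livers scored 1.71 to 3.14, so that tumor 4 lay inside their range and tumor 3 just above it.

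The promoters of Col1a2 and Col3a1 are shown because the RNA of these genes defines the groups. They are 250 bases before the start, from RefSeq on GRCm38.p6, at chr6:4505368-4505617 and chr1:45311288-45311537, both on the plus strand. Capitals mark the letters CCAAT or TATAAA, which were searched on both strands and do not overlap each other.
Col1a2: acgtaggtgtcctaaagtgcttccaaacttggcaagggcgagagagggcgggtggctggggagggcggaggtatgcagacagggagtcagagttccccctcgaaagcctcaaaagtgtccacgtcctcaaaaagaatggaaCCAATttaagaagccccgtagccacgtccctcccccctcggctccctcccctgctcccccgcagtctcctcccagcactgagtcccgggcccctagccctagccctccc
Col3a1: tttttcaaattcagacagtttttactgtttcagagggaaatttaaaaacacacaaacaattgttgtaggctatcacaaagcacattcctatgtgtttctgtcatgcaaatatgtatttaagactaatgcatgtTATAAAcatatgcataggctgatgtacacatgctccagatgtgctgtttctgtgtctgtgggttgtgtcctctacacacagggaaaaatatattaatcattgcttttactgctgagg
The Col1a2 window held CCAAT at 109 to 105 bases before the start, and the Col3a1 window TATAAA at 117 to 112. Of 32851 promoter windows of this length, 33.8% held CCAAT and 12.4% held TATAAA on either strand. Of 36 windows of 33 other collagen genes, 33.3% and 11.1% did. A match is only a run of letters and not a shown site.

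Measures of the libraries overlapped between the groups. Between 11508 and 13819 genes were above 0 in a collagen-rich and between 11587 and 13478 in a collagen-poor tumor, and deposited totals were 849707 to 907513. Siglece took 21.5% to 53.4% of the total in collagen-rich tumors, with tumor 11 highest, and 23.7% to 41.3% in collagen-poor ones. Age, genes above 0, deposited total and the shares of Siglece and Gm26917 gave p of 0.579 to 0.984 (two-sided exact permutation tests over 252 splits, 5 measures, adjusted p 0.873 to 0.984, smallest possible p 0.00794). Deposited values are whole numbers, and 1 deposited unit equals 1.63 to 2.55 rescaled TPM in these tumors, so levels under about 10 rest on few steps. The unit was largest in tumor 11, so its value can exceed that of a tumor with the same deposited number. TPM do not keep read numbers, so the depth behind a value is unknown.

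Across all genes, the comparison of collagen-rich with collagen-poor tumors called no gene. Of 12422 genes tested with limma, 0 (0.0%) had an adjusted p under 0.05, and the lowest adjusted p was 0.403. At an unadjusted p under 0.05 there were 864 genes, 679 (5.47%) higher and 185 (1.49%) lower in collagen-rich tumors. The groups did not overlap in 117 genes (0.942%) that were higher and 25 (0.201%) that were lower. This split depended on the scaling: with a trimmed mean of M values, 340 genes were higher and 436 lower at an unadjusted p under 0.05, and 48 higher and 86 lower genes did not overlap. On the deposited values, with the same groups, 318 were higher and 143 lower at an unadjusted p under 0.05. There only 27 higher and 7 lower genes did not overlap, so most of the separation seen as rescaled was absent without the rescaling. The median log2 difference of all genes was 0.10 as rescaled and -0.02 after the trimmed mean scaling. Medians of gene lists are therefore given relative to the median of all genes in the same fit. Counts of list members at an unadjusted p under 0.05 are to be read beside the 5.47% higher and 1.49% lower of all genes. Because the groups were set by collagen RNA in these same libraries, the values below describe which genes went with it, and differences of single genes between the groups are not calls. In bulk tissue, fewer cells of a type and less RNA per cell cannot be told apart.

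Of 41 other collagen genes, 21 passed the filter on low values and 18 were listed at 0 in all 10 tumors. Of the 21, 8 were higher and 0 lower at an unadjusted p under 0.05, beside 5.47% and 1.49% of all genes. Among them 3 were higher without overlap, beside 0.942% of all genes. Their median log2 difference exceeded that of all genes by 0.35, and by 0.34 after the trimmed mean scaling. Col5a1 encodes a chain of type V collagen, which is built into type I fibrils. It stood at 8.166, 9.393, 4.884, 8.412 and 5.092 in tumors 10, 6, 5, 8 and 11 and at 2.183, 3.323, 3.427, 1.881 and 1.783 in tumors 7, 1, 12, 3 and 4. All collagen-rich tumors were above all collagen-poor ones, by 1.21 ± 0.25 on the log2 scale (SE, limma, adjusted p = 0.403). Tumor 11 held the same deposited number as tumors 1 and 12, so its place above them comes from the rescaling. There 1 deposited unit equals 2.546, 1.662 and 1.713. The livers, at 3.557 to 5.706, lay above each collagen-poor tumor and overlapped the collagen-rich ones. Col5a2, its partner chain, ranged from 3.256 to 6.124 and from 0 to 2.183, also without overlap. Col6a5, a type VI collagen chain, stood at 6.124, 1.879, 1.628, 3.365 and 5.092 in collagen-rich tumors and was listed at 0 in each collagen-poor one, so it passed the filter only through the group where it was higher. No test is given for it, and without it 7 of the other 20 collagens were higher and 2 did not overlap. The medians of 0.35 and 0.34 include Col6a5. Summed over all 41 genes the groups overlapped, at 488.4 to 731.8 and 501.1 to 749.4.

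Among 31 enzymes and chaperones of collagen maturation, 22 were tested, 5 were higher and 0 lower at an unadjusted p under 0.05 (5.47% and 1.49% of all genes), and the median exceeded that of all genes by 0.36. After the trimmed mean scaling 3 were higher, and without tumor 10, 2. Crtap, a part of the prolyl 3-hydroxylase complex, ranged from 8.412 to 20.41 in collagen-rich and from 5.643 to 11.63 in collagen-poor tumors (log2 difference 0.73 ± 0.25, SE, limma, adjusted p = 0.708). Serpinh1, the collagen chaperone HSP47, ranged from 14.65 to 36.75 and from 7.133 to 16.93 (0.76 ± 0.29, adjusted p = 0.708). Both overlapped between the groups. P4hb, the beta subunit of prolyl 4-hydroxylase and a general disulfide isomerase, was the member without overlap, at 2540 to 3150 and 1672 to 2444. Lox, a cross-linking lysyl oxidase, was above 0 only in tumors 10 and 6 of the 10, at 4.083 and 1.879, and did not pass the filter.

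Of 56 matrix glycoproteins and proteoglycans, 38 were tested, 8 were higher and 0 lower at an unadjusted p under 0.05, and the median exceeded that of all genes by 0.28. Efemp2, the elastic-fiber protein fibulin-4, had the smallest p of all genes. It stood at 8.166, 11.27, 6.512, 5.047 and 10.18 in collagen-rich and at 2.183, 1.662, 3.427, 1.881 and 1.783 in collagen-poor tumors. The groups did not overlap, and they differed by 1.51 ± 0.25 on the log2 scale (SE, limma, adjusted p = 0.403). Collagen-poor tumors were within the range of livers, 1.62 to 3.685. Postn, the matricellular protein periostin, ranged from 2.546 to 7.515 and from 1.662 to 2.183 (0.98 ± 0.27, adjusted p = 0.685). Lum, the fibril-binding proteoglycan lumican, ranged from 4.884 to 6.124 and from 1.881 to 4.365. Tumor 11 held the same deposited number of Postn as each collagen-poor tumor, and the same of Lum as tumor 7. Its place above them comes from the rescaling. Sparc, a collagen-binding matricellular protein, stood at 326.6, 349.4, 255.6, 245.6 and 430.3 against 235.7, 104.7, 275.8, 88.41 and 83.82 (1.18 ± 0.34, adjusted p = 0.685). Tumor 12 fell among the collagen-rich values, and the middle tumor 9, at 442.7, exceeded them all. The proteoglycan genes Dcn (20.41 to 92.53 against 19.94 to 49.69) and Bgn (48.85 to 97.58 against 33.86 to 71.96) and fibronectin, Fn1 (973.5 to 2226 against 1079 to 1708), overlapped broadly.

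Markers of stellate cells and myofibroblasts had 19 of 24 members tested, 6 higher and 0 lower at an unadjusted p under 0.05 (5.47% and 1.49% of all genes), 3 higher without overlap (0.942% of all genes) and a median 0.32 above that of all genes. Tagln, the actin-binding protein transgelin of contractile cells, stood at 16.33, 13.15, 11.4, 18.51 and 7.638 in collagen-rich and at 6.548, 4.985, 5.14, 3.762 and 3.567 in collagen-poor tumors (1.28 ± 0.24, log2 difference and SE, limma, adjusted p = 0.403). Tumor 11 held the same deposited number of Tagln as tumors 7, 1 and 12, so its place above them comes from the rescaling. Livers held 1.779 to 6.478, so that collagen-poor tumors were near or within their range. Vim, vimentin, an intermediate filament of mesenchymal and immune cells, ranged from 40.38 to 124.5 and from 14.27 to 33.23 (1.23 ± 0.32, adjusted p = 0.670), with tumor 10 highest. S100a6, a calcium-binding protein, also did not overlap, at 10.09 to 91.86 and 3.567 to 8.73. Acta2, smooth muscle actin, did overlap, at 18.37, 20.67, 6.512, 11.78 and 5.092 against 4.365, 4.985, 5.14, 3.762 and 8.917 (0.94 ± 0.36, adjusted p = 0.708). Tumor 4, the lowest in collagen, held the highest Acta2 of the collagen-poor group. Pdgfrb, the PDGF receptor of mesenchymal cells, ranged from 6.512 to 15.14 and from 1.881 to 8.566 (0.93 ± 0.32, adjusted p = 0.708).

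Other markers of stellate cells overlapped between the groups. Lrat, which stores vitamin A in quiescent stellate cells, was 0 to 13.46 against 1.662 to 5.35, and the intermediate filament Des, desmin, 1.879 to 5.047 against 1.662 to 2.183. Pdgfra was 1.628 to 5.047 against 0 to 5.14, and Hgf, the ligand of Met, 2.041 to 11.78 against 1.881 to 6.853. The summed level of the 24 markers was 413.3 to 634.9 in collagen-rich, 317.4 to 419.5 in collagen-poor tumors and 174.3 to 302.7 in livers. This sum is weighted to the abundant members and does not speak for the list: over the 20 members tested with livers, the median log2 difference from liver was -0.20 in collagen-rich and -0.31 in collagen-poor tumors.

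**Figure D2:**
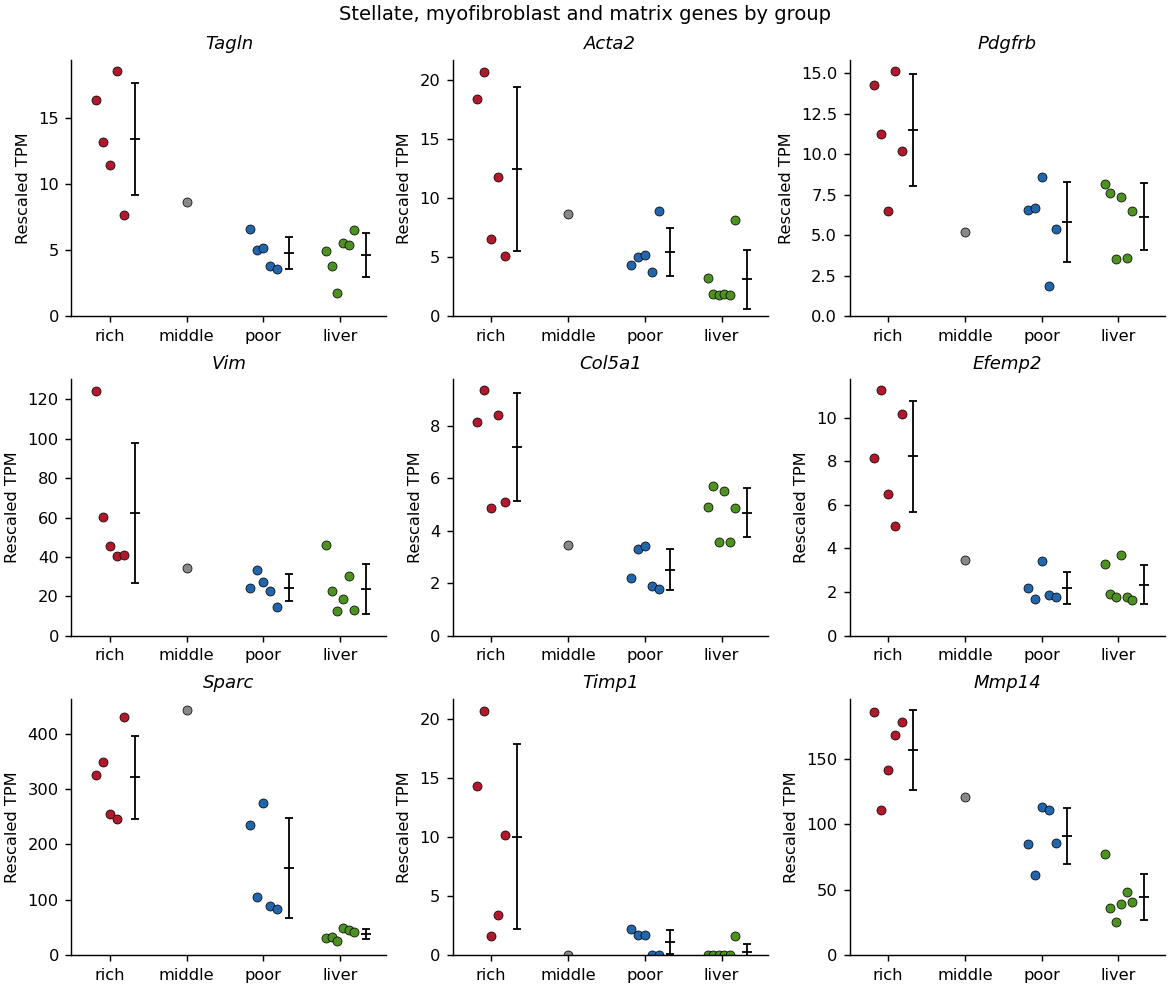
Rescaled TPM of 9 stromal genes in collagen-rich tumors (n = 5), the middle tumor, collagen-poor tumors (n = 5) and livers (n = 6), with 1 point per sample and the mean ± SD beside each group. Tagln, Vim, Col5a1 and Efemp2 do not overlap between collagen-rich and collagen-poor tumors, whereas Acta2, Pdgfrb, Sparc, Timp1 and Mmp14 do. For Tagln and Col5a1, tumor 11 holds the same deposited number as some collagen-poor tumors and lies above them through the rescaling.

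Of 9 portal fibroblast markers 6 were tested and 1 was higher at an unadjusted p under 0.05. It was Igfbp6, an IGF-binding protein, at 3.256 to 16.33 against 0 to 2.183 (log2 difference 1.69 ± 0.42, SE, limma, adjusted p = 0.657), without overlap. The collagen-rich tumors alone were enough for Igfbp6 to pass the filter on low values. Ly6a, the antigen Sca-1, was 12.73 to 71.63 against 8.566 to 19.64. Of 9 smooth muscle and pericyte markers 5 were tested and 2 were higher. Their median exceeded that of all genes by 0.64 within E19 and was 0.0060 below it within E20. Mcam, an adhesion molecule of pericytes and endothelium, was 6.512 to 18.51 against 3.427 to 6.647 (0.94 ± 0.28, adjusted p = 0.685), and Smtn, smoothelin, 7.515 to 24.5 against 3.567 to 9.97 (0.95 ± 0.35, adjusted p = 0.708).

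Of 30 ligands, receptors and targets of TGF-beta and PDGF, 29 were tested, 3 were higher and 0 lower at an unadjusted p under 0.05, and the median exceeded that of all genes by 0.08. The ligand Tgfb1 stood at 24.5, 15.03, 16.28, 15.14 and 17.82 against 10.91, 11.63, 10.28, 15.05 and 10.7 (0.55 ± 0.18, log2 difference and SE, limma, adjusted p = 0.708), so that of the collagen-poor tumors tumor 3 alone reached the collagen-rich values. The ligand Tgfb2 was 2.041 to 6.512 against 0 to 2.183 (0.93 ± 0.37, adjusted p = 0.708), and the collagen-rich tumors alone were enough for it to pass the filter. Ccn2, connective tissue growth factor, a target of TGF-beta, was 7.638 to 23.55 against 8.917 to 13.17.

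Of 42 matrix proteases and inhibitors 28 were tested, 6 were higher and 0 lower at an unadjusted p under 0.05 (5.47% and 1.49% of all genes), and the median exceeded that of all genes by 0.29. Within E19 it did so by 0.58, and within E20 by 0.02, with 0 higher and 1 lower. With the ranking on deposited values, 2 were higher and 1 lower. Timp1, an inhibitor of matrix metalloproteases, stood at 14.29, 20.67, 1.628, 3.365 and 10.18 against 2.183, 1.662, 1.713, 0 and 0 (2.17 ± 0.59, log2 difference and SE, limma, adjusted p = 0.682). Tumor 5 lay among the collagen-poor values, and the middle tumor 9 was listed at 0. Mmp14, a membrane-bound collagenase, stood at 185.8, 110.8, 141.6, 168.2 and 178.2 against 85.12, 61.48, 113.1, 111 and 85.6 (0.78 ± 0.21, adjusted p = 0.682). Only tumor 6 lay within the collagen-poor range. Mmp2, the gelatinase that Mmp14 activates, was 1.682 to 5.636 against 0 to 2.183 (1.56 ± 0.43, adjusted p = 0.685). The collagen-rich tumors alone were enough for Mmp2 and Timp1 to pass the filter on low values, and the collagen-poor values of both include 0. Plaur, the urokinase receptor, did not overlap, at 5.047 to 18.37 and 1.783 to 4.365.

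Collagen and matrix receptors had 23 of 28 members tested, 4 higher and 0 lower at an unadjusted p under 0.05, and a median 0.05 above that of all genes. The heparan sulfate proteoglycan Sdc3 was 15.28 to 37.44 against 9.97 to 16.93 (0.82 ± 0.27, log2 difference and SE, limma, adjusted p = 0.708). The hyaluronan receptor Cd44 was 2.546 to 36.75 against 1.662 to 4.365 (1.37 ± 0.51, adjusted p = 0.708), with tumor 10 highest. Ddr2, a receptor for fibrillar collagen, was 1.879 to 12.73 against 0 to 9.97.

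**Figure D3:**
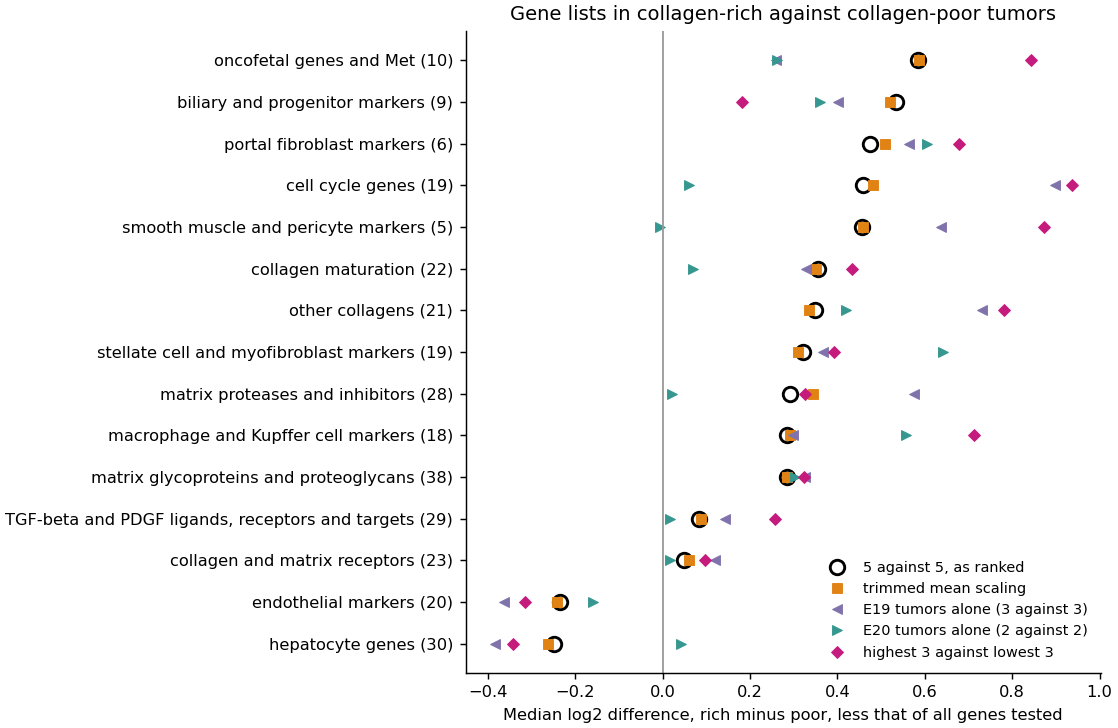
Median log2 difference of each gene list with at least 5 tested members (number in parentheses), collagen-rich minus collagen-poor tumors, less the median of all genes tested, for the 5 against 5 comparison and 4 alternatives. In the 5 against 5 comparison the collagen, maturation, matrix, stellate and protease lists lie between 0.28 and 0.36, and endothelial markers and hepatocyte genes lie at -0.23 and -0.25. Oncofetal genes and Met (0.59), biliary and progenitor markers (0.53) and cell cycle genes (0.46) lie higher than these stromal lists. So do the small portal fibroblast (0.48) and smooth muscle (0.46) lists.

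The sample names carry the tags E19 and E20, whose meaning the sources used here do not give, and each group held 3 E19 and 2 E20 tumors. Within E19 the medians relative to all genes were 0.73 for other collagens, 0.33 for collagen maturation, 0.33 for matrix glycoproteins and 0.37 for stellate markers. Within E20 they were 0.42, 0.07, 0.30 and 0.64. A test of whether the difference between the groups differed by tag called 0 of 12422 genes (limma interaction, adjusted p under 0.05), with 495 at an unadjusted p under 0.05. Without tumor 10 the medians of these lists were 0.35, 0.32, 0.29 and 0.41, and with the ranking on deposited values 0.25, 0.23, 0.15 and 0.26.

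Endothelial markers, 20 of 20 tested, had 0 higher and 0 lower at an unadjusted p under 0.05 and a median 0.23 below that of all genes. Stab2, a scavenger receptor of sinusoidal endothelium, stood at 2.041, 18.79, 4.884, 26.92 and 2.546 against 15.28, 19.94, 29.13, 15.05 and 12.48 (-1.20 ± 0.57, log2 difference and SE, limma, adjusted p = 0.722). Tumors 10, 5 and 11 were lower than all collagen-poor tumors, and tumors 6 and 8 were within their range. The VEGF receptor Kdr was 6.124 to 24.42 against 17.46 to 28.25, and the pan-endothelial Pecam1 13.15 to 22.91 against 10.7 to 31.57. Summed endothelial markers were 245.0 to 467.7 against 312.1 to 462.6.

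Macrophage and Kupffer cell markers, 18 of 20 tested, had 1 higher and 0 lower at an unadjusted p under 0.05, and a median 0.28 above that of all genes. The higher one was Lgals3, galectin-3, at 28.18 to 155.1 against 8.917 to 24.01 (1.25 ± 0.44, log2 difference and SE, limma, adjusted p = 0.708). Adgre1, encoding F4/80, was 2.546 to 16.28 against 2.183 to 7.525, Cd14 5.636 to 10.18 against 4.365 to 8.917, and the Kupffer cell lectin Clec4f 0 to 30.28 against 3.323 to 20.69, with tumor 10 at 0. The summed level of the list was 926.8, 364.5, 703.3, 432.4 and 180.8 in tumors 10, 6, 5, 8 and 11 and 177.8 to 412.5 in collagen-poor tumors. Tumor 11 thus held little more than the lowest collagen-poor tumor. Without tumor 10 the macrophage median was 0.18 above that of all genes, and without tumor 11 it was 0.53, with 7 of 18 markers higher at an unadjusted p under 0.05.

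Lymphocyte markers summed to 104.1 in tumor 10, 45.6 in tumor 5 and 5.09 to 15.03 in the other 3 collagen-rich tumors, against 8.57 to 34.9 in collagen-poor tumors. Only 3 of the 19 measured were tested, and Cd3e, a subunit of the T cell receptor complex, was above 0 only in tumors 10 and 5 of the 10, at 8.166 and 3.256. Ighm, the heavy chain of IgM, was 2.546 to 59.2 against 6.853 to 32.74, and Gzma, granzyme A, 0 to 4.884 against 0 to 7.133. Mast cell and neutrophil markers summed to 126.6 in tumor 10, to 0 to 11.3 in the other collagen-rich tumors and to 3.43 to 7.52 in collagen-poor ones. Their tested members included Kit and Csf3r, at most 2.041 in collagen-rich and 3.323 in collagen-poor tumors. Mesothelial markers summed to 2.04 to 8.41 against 0 to 7.13. The mesothelial Msln was above 0 only in tumors 6 and 8 of the 10, at 1.879 and 1.682, and Gpm6a was 0 to 8.14 against 0 to 7.133. Of adipocyte and red cell markers, 4 of 8 were tested and Hbb-bs, a globin, was higher at an unadjusted p under 0.05, at 1.628 to 7.515 against 0 to 3.323. Alas2, of heme synthesis in red cell precursors, was 12.73 to 34.7 against 28.25 to 39.23. The part of these cell types in the differences of matrix and stellate genes was not tested.

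**Figure D4:**
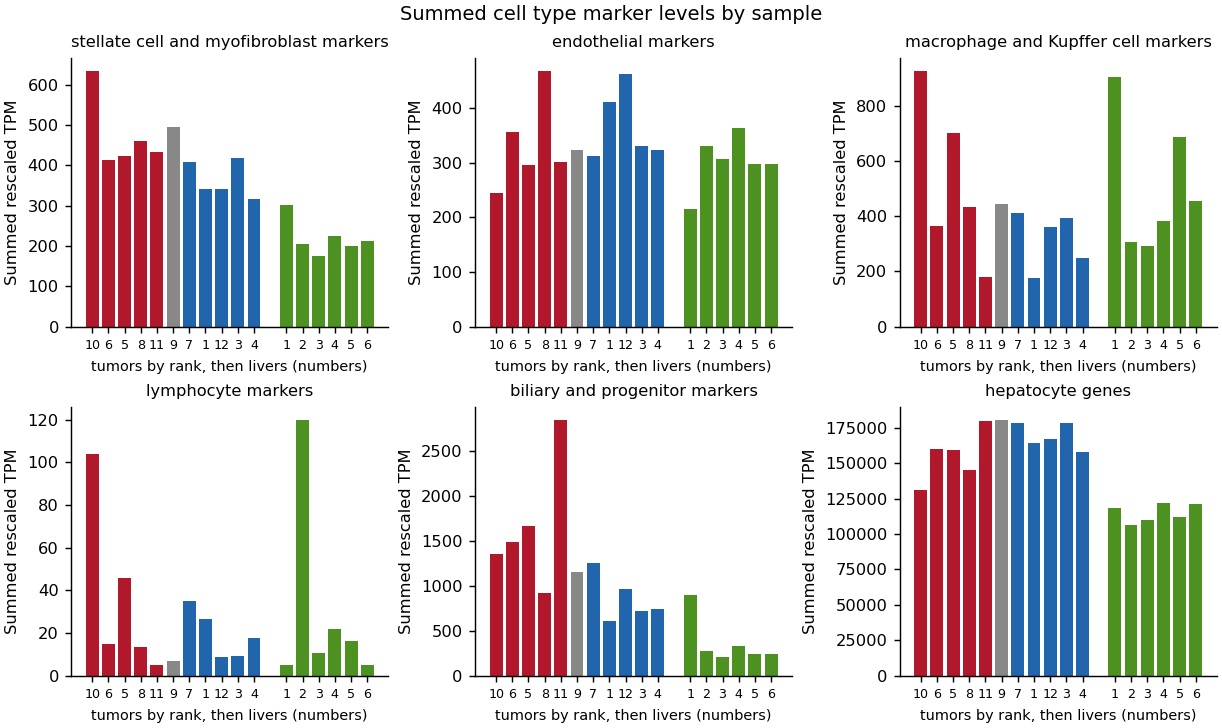
Summed rescaled TPM of 6 marker lists in the 11 ranked tumors, in rank order, and in 6 livers (bars, 1 per sample, colored by group as in the ranking plot). Tumor 10 is the highest tumor for stellate (634.9), macrophage (926.8) and lymphocyte (104.1) markers, and tumor 11 for biliary and progenitor markers (2844).

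Genes of epithelial cells were read next. Biliary and progenitor markers had 9 of 15 tested, 4 higher and 1 lower at an unadjusted p under 0.05. Krt8 and Krt18, the keratin pair of hepatocytes and bile duct cells alike, had the smallest p. Krt8 stood at 545.1, 255.5, 573, 319.6 and 417.5 against 261.9, 157.9, 203.9, 182.5 and 167.6 (1.07 ± 0.24, log2 difference and SE, limma, adjusted p = 0.576), and only tumor 6 lay below tumor 7. Krt18 did not overlap, at 338.2 to 615.4 and 160.5 to 327.4 (0.96 ± 0.23, adjusted p = 0.633). The duct keratin Krt19 was above 0 only in tumors 10 and 8 of the 10, at 2.041 and 1.682, and Epcam, an epithelial adhesion molecule of ducts, was 0 to 1.879 against 0 to 2.183. The median of the list was 0.53 above that of all genes, but 0.0044 without tumor 11, which had the highest sum, 2844. Within E20, 0 members were higher and 0 lower at an unadjusted p under 0.05. With the ranking on deposited values 0 were higher and 1 lower.

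Hepatocyte genes, 30 of 30 tested, had 0 higher and 1 lower at an unadjusted p under 0.05 and a median 0.25 below that of all genes. The direction was not shared by both tags: within E19 the median was 0.38 below and within E20 0.04 above that of all genes, with 18 of 30 above it. After the trimmed mean scaling 4 were lower at an unadjusted p under 0.05. Cyp8b1, which directs bile acid synthesis toward cholic acid, stood at 24.5, 92.06, 16.28, 68.98 and 15.28 against 113.5, 152.9, 133.6, 75.25 and 181.9 (-1.89 ± 0.48, log2 difference and SE, limma, adjusted p = 0.668). Of the collagen-poor tumors only tumor 3 lay below tumor 6. Livers spanned 4.908 to 283.4, more than both groups. Pck1, of gluconeogenesis, was 4.083 to 790.7 against 495.1 to 1137. Alb (46800 to 83020 against 61870 to 88120), the hepatocyte transcription factor Hnf4a (63.65 to 105.2 against 58.85 to 123) and the cytochrome Cyp2e1 (198.6 to 5075 against 106.3 to 1452, with tumor 10 highest) overlapped.

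Oncofetal genes and Met had 10 of 11 tested, 2 higher and 0 lower at an unadjusted p under 0.05, and a median 0.59 above that of all genes. Afp, alpha-fetoprotein, stood at 334.8, 84.54, 122.1, 74.02 and 78.92 against 63.3, 66.47, 42.83, 75.25 and 26.75 (1.14 ± 0.41, log2 difference and SE, limma, adjusted p = 0.708), with tumor 3 just above the lowest collagen-rich value. Igf2, a fetal growth factor, was 75.53 and 212.3 in tumors 10 and 6, 1.628 to 15.14 in the other 3 and 0 to 8.73 in collagen-poor tumors (3.01 ± 1.13, adjusted p = 0.708). The difference thus rested on tumors 10 and 6, and tumors 5 and 11 lay within the collagen-poor range. The collagen-rich tumors alone were enough for Igf2 to pass the filter on low values, and its collagen-poor values include 0. Gpc3, a cell-surface proteoglycan, was 379.7 in tumor 10, 10.18 to 31.94 in the other 4 and 3.567 to 43.65 in collagen-poor tumors. Met, whose RNA may include that of the transgene, was 171.6 to 313.7 against 237.2 to 344.

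Cell cycle genes, 19 of 20 tested, had 5 higher and 0 lower at an unadjusted p under 0.05 and a median 0.46 above that of all genes. The proliferation marker Mki67 was 5.047 to 8.166 against 1.783 to 6.647 (0.69 ± 0.30, log2 difference and SE, limma, adjusted p = 0.708), the mitotic cyclin Ccnb1 1.682 to 6.124 against 0 to 1.713 (1.37 ± 0.43, adjusted p = 0.708) and Birc5, survivin, 2.546 to 12.25 against 1.713 to 4.985 (1.09 ± 0.37, adjusted p = 0.708). These levels are few deposited units each. For Ccnb1, with 0 among its collagen-poor values, the collagen-rich tumors alone were enough to pass the filter on low values. Within E19 the median of cell cycle genes was 0.90 above that of all genes and within E20 0.06. Without tumor 10, 2 were higher at an unadjusted p under 0.05, and after the trimmed mean scaling 3.

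Outside the lists, Gsta4, Phlda3, Dio1 and Slc5a1 were among the 7 genes with the smallest p and were named after their values were seen. Gsta4, a glutathione transferase for lipid aldehydes, stood at 249.1, 144.7, 83.03, 99.26 and 129.8 against 52.38, 61.48, 37.69, 37.62 and 35.67 (1.56 ± 0.28, log2 difference and SE, limma, adjusted p = 0.403), without overlap. Phlda3, a p53 target, was 13.46 to 43.21 against 3.762 to 10.28 (1.62 ± 0.31, adjusted p = 0.403). Dio1, the deiodinase that activates thyroid hormone, was lower in each collagen-rich tumor, at 28.58, 30.06, 21.16, 37.01 and 35.64 against 85.12, 96.38, 66.82, 45.15 and 60.63 (-1.17 ± 0.23, adjusted p = 0.403). Slc5a1, a sodium-glucose transporter, was 1.628 to 2.041 in 4 collagen-rich tumors and 7.638 in tumor 11, against 6.647 to 13.17 (-1.66 ± 0.33, adjusted p = 0.403). Without tumor 11, Slc5a1 had an adjusted p of 0.0274 (limma) and was the 1 gene called.

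**Figure D5:**
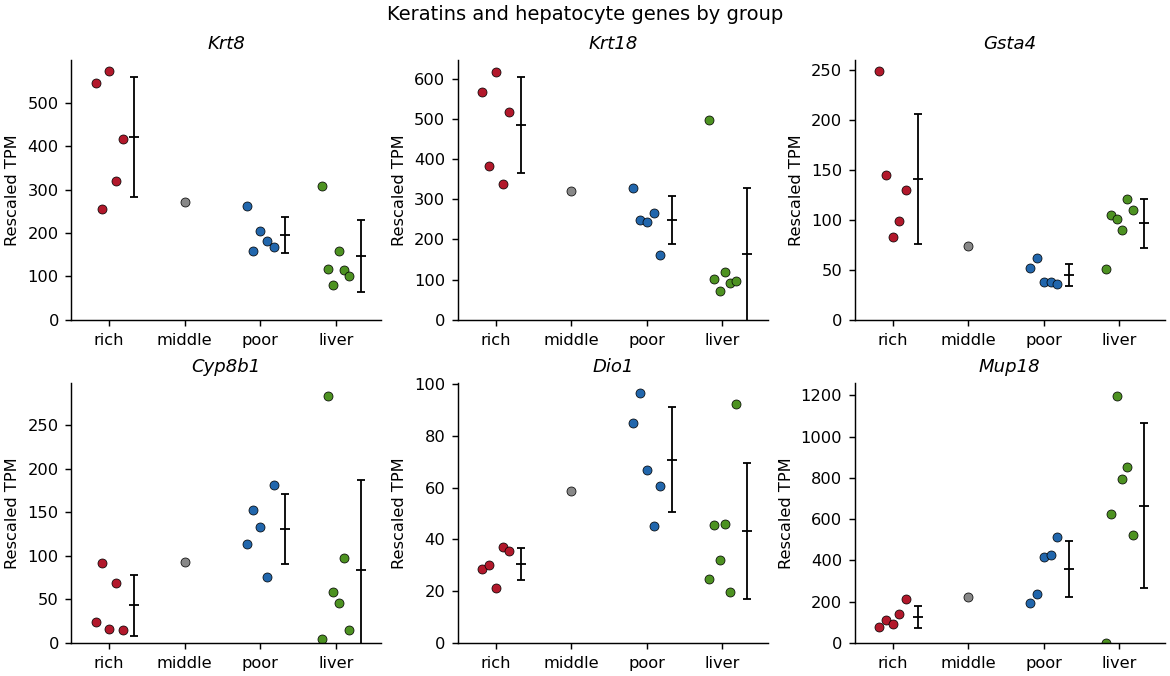
Rescaled TPM of 6 genes of hepatocytes and epithelial cells in collagen-rich tumors (n = 5), the middle tumor, collagen-poor tumors (n = 5) and livers (n = 6), with 1 point per sample and the mean ± SD beside each group. Krt18 and Gsta4 are higher and Dio1 lower in each collagen-rich than in each collagen-poor tumor, and Krt8, Cyp8b1 and Mup18 overlap.

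The score was also used as a number over all 11 ranked tumors, which needs no cut. Of 12507 genes, 5 (0.04%) rose and 1 (0.008%) fell with it at an adjusted p under 0.05, and 1486 had an unadjusted p under 0.05. Per log2 unit of the score, Vim rose by 0.63 ± 0.09 on the log2 scale (SE, limma, adjusted p = 0.0219). Csrp1, a LIM protein of smooth muscle and stellate cells, rose by 0.59 ± 0.08 (0.0219), Gsta4 by 0.69 ± 0.10 (0.0267), the cytochrome Cyp2a5 by 0.92 ± 0.13 (0.0267) and Igfbp6 by 0.83 ± 0.13 (0.0327). Mup18, a major urinary protein, fell by 0.72 ± 0.09 (0.0219). These genes were named after their values were seen, and the score comes from the same libraries. Mup18 was 77.57 to 213.9 in collagen-rich, 221.3 in the middle and 192.1 to 515.4 in collagen-poor tumors, but the Mup genes are near-identical copies and reads may have been split among them. Cyp2a5 was 590.7 to 2127 against 154.3 to 1355, and Csrp1 10.18 to 32.66 against 5.35 to 10.91.

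Each group was also set against the 6 livers in 1 fit over the 3 groups, so both comparisons share the livers. Collagen-rich tumors had 1932 genes (14.3% of 13552) that rose and 749 (5.53%) that fell (limma, adjusted p under 0.05). Collagen-poor tumors had 1077 (7.95%) that rose and 495 (3.65%) that fell. After the trimmed mean scaling, 1576 rose and 1181 fell in collagen-rich tumors, and 1135 rose and 557 fell in collagen-poor ones. Of 22 other collagens tested, 9 rose and 1 fell in collagen-rich and 4 rose and 2 fell in collagen-poor tumors. Of 43 matrix glycoproteins, 15 rose and 1 fell, and 8 rose and 4 fell. Of 20 stellate and myofibroblast markers, 5 rose and 0 fell in collagen-rich tumors, and 1 rose and 5 fell in collagen-poor ones. That these counts differ between the comparisons is not a test of a difference between the groups, which the direct comparison above gives.

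Sparc rose in both, by 3.08 ± 0.30 (log2 difference and SE, limma, adjusted p = 1.8e-06) in collagen-rich and 1.90 ± 0.30 (0.000346) in collagen-poor tumors. Mmp14 rose by 1.86 ± 0.24 (4.06e-05) and 1.08 ± 0.24 (0.00687), and Tgfb1 by 1.27 ± 0.17 (6.92e-05) and 0.72 ± 0.17 (0.0115). These 3 matrix and signaling genes thus passed the test in both groups. Tagln rose by 1.36 ± 0.26 (0.00148) in collagen-rich tumors and differed by 0.08 ± 0.26 (0.889) in collagen-poor ones. Efemp2 rose by 1.46 ± 0.24 (0.000401) and differed by -0.05 ± 0.24 (0.923), and Vim rose by 1.35 ± 0.34 (0.00941) and differed by 0.12 ± 0.34 (0.871). Acta2 rose by 1.70 ± 0.37 (0.00332) and differed by 0.76 ± 0.37 (0.220). In these genes the collagen-poor tumors did not pass the test against liver. Igfbp6 gave 2.41 ± 0.42 (0.000674) in collagen-rich and 0.72 ± 0.42 (0.328) in collagen-poor tumors, with livers at 0 to 1.902. The collagen-rich tumors alone were enough for it to pass the filter on low values. Timp1 was at 1.62 in liver 6 and listed at 0 in the other livers, so no fold against liver is given for it.

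Some stromal genes were lower than in liver. Col5a1 fell in collagen-poor tumors by 0.70 ± 0.22 (log2 difference and SE, limma, adjusted p = 0.0436) and gave 0.50 ± 0.22 (0.115) in collagen-rich ones. Dcn fell in both, by 1.07 ± 0.30 (0.0178) and 1.23 ± 0.30 (0.0123). Des fell in collagen-poor tumors by 0.83 ± 0.21 (0.0151) and gave -0.25 ± 0.21 (0.425) in collagen-rich ones. Hgf fell in collagen-poor tumors by 1.17 ± 0.35 (0.0363) and gave -0.93 ± 0.35 (0.0669) in collagen-rich ones. Of 20 endothelial markers, 6 rose and 1 fell in collagen-rich and 7 rose and 0 fell in collagen-poor tumors, beside the 14.3% and 5.53%, and 7.95% and 3.65%, of all genes. Pecam1 rose by 1.38 ± 0.25 (0.000993) and 1.48 ± 0.25 (0.000816).

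Met rose in both groups, by 2.29 ± 0.23 (log2 difference and SE, limma, adjusted p = 3.09e-06) in collagen-rich and 2.44 ± 0.23 (1.92e-06) in collagen-poor tumors. The oncofetal gene Afp was at 4.91 in liver 1 and listed at 0 in the other livers, below each of the 10 tumors. Gpc3 and Mki67 were listed at 0 in each liver. No fold against liver is given for Afp, Gpc3 or Mki67. Of 19 cell cycle genes tested, 19 rose in collagen-rich tumors and 9 in collagen-poor ones, beside 14.3% and 7.95% of all genes. These counts can include genes that, like Mki67, were listed at 0 in each liver and so could only rise. Krt8 rose in collagen-rich tumors by 1.598 ± 0.29 (0.00102) and gave 0.53 ± 0.29 (0.2997) in collagen-poor ones. Of 30 hepatocyte genes, 2 rose and 9 fell in collagen-rich tumors, and 4 rose and 7 fell in collagen-poor ones.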

How the data were processed

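Poly-A RNA of 12 tumors and 6 livers was sequenced in paired ends. The authors aligned reads to GRCm38 (mm10) and quantified genes with Salmon. The deposited values are TPM rounded to whole numbers, read here as a score and not as counts, so no depth or counting interval can be given. Siglece and Gm26917 were dropped and each column was rescaled to 1000000. In 8 lines an extra separator was mended. Groups were the 5 highest and 5 lowest of 11 tumors in the mean log2(value + 1) of 3 collagen genes, which were left out of the tests. Genes at 1 or more in at least 5 samples were tested on log2(value + 1) with limma 3.58.1 (R 4.3.3) with a trend, with Benjamini-Hochberg adjustment over all genes. The 5 tumors of 1 group were enough for this filter, so genes listed at 0 in tumors of the other group could be tested. Fold changes on this scale understate those of low genes. The script was tested on simulated data. Within a group each tumor came from its own mouse. The members, gene lists and tests were chosen with earlier results of these data known. Named genes were the ranking genes, the 10 genes with the largest change in each direction among calls without overlap (0 passed), the 2 members with the smallest p of each list and a fixed list of stromal, liver and tumor markers. Col5a2, P4hb, Lum, S100a6, Plaur, Gsta4, Phlda3, Dio1, Slc5a1, Mup18, Csrp1 and Cyp2a5 were added after their values were seen. Other scalings, pseudocounts, filters, rankings, covariates, tags, sample weights and single samples left out were tried. Ages came from the study's sample list. For tumors 3 and 10 the mouse number in that list differs from the label, so they were matched by tumor number and tag.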

Additional observations from a re-analysis of the deposited data

Results flagged for a closer look

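Among 219 groups of 5 or 6 samples of the named genes, 39 held a sample whose gap to its nearest neighbor was a large share of the group's whole range by Dixon's critical values. For normally distributed values about 1 in 20 groups would do so, or 10.9 here. The gaps were taken on rescaled TPM and not on the log2 scale, and some rest on 1 low value beside zeros. That share therefore need not hold, and the 2 counts are not a test of an excess.

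Tumor 10 stood apart most often in the collagen-rich group, with the highest value of 8 genes. The gap was 0.765 of the range for Vim, 0.789 for Cd44, 0.97 for Lgals3, 0.816 for Afp, 0.904 for S100a6, 0.806 for Plaur, 0.941 for Gpc3 and 0.813 for Ighm. Tumor 11 was highest for Slc5a1 (0.931) and lowest, at 0, for Kit (0.797) and Csf3r (0.797), and tumor 8 was highest for Pdgfra (0.732).

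In the collagen-poor group tumor 4 was highest for Acta2 (0.733) and Gzma (0.736) and lowest, at 0, for Igfbp6 (0.761) and Tgfb2 (0.761). Tumor 3 was highest for Tgfb1 (0.717) and lowest, at 0, for Col5a2 (0.761). Tumor 7 was highest for Igf2 (0.796) and tumor 1 for Met (0.809).

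Among livers, liver 1 was highest for Lgals3 (0.779), Krt8 (0.658), Krt18 (0.894), Afp (1.0), Phlda3 (0.829) and Slc5a1 (1.0) and lowest for Birc5 (0.851). Liver 2 was highest for Col6a5 (1.0), Cyp8b1 (0.665), Igf2 (1.0) and Ighm (0.838), and liver 6 for Acta2 (0.764), Timp1 (1.0) and Dio1 (0.636). Liver 5 was highest for Clec4f (0.759) and Gzma (1.0) and lowest for Col5a2 (0.851), liver 4 was highest for Postn (0.863) and liver 3 for Mcam (0.854). A gap of 1.0 means that the other 5 livers were all listed at the same value, 0.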

How the results depend on the processing

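Collagen-rich against collagen-poor tumors gave 0 calls (limma) under the alternatives run except the score as a number over 11 tumors, with 6 calls, and without tumor 11, with 1, so that leaving out single tumors gave 0 to 1. Of 73 tested genes named, 20 changed sign somewhere under these alternatives, and for this comparison they are printed by level only. That the 34 genes printed with a difference kept its direction in all 942 values follows from this choice. It is therefore no test of how stable the differences are. Of these 942 values, 4 passed the adjusted threshold. Of 485 list medians under the alternatives, 23 moved by more than their spread, and the mast cell and neutrophil list had no member left under the filter at 5. Tumors 11 and 12, of 1 mouse, lay in opposite groups and were not averaged.

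Against livers, leaving out single samples gave 2017 to 3699 calls for collagen-rich tumors (2681 with all, the highest without liver 1) and 1033 to 2120 for collagen-poor ones (1572 with all, the lowest without tumor 1 or tumor 3). Of 904 values of named genes, 836 kept direction and side, 57 lost and 4 gained significance and 7 reversed. Without single samples the collagen-poor difference from liver ran from -0.179 to 0.052 for Efemp2, from -0.11 to 0.18 for Tagln and from -0.023 to 0.337 for Vim, on the log2 scale. A tumor and a liver with the same number came from different mice, and nothing in the labels pairs them. Their deviations from the group means correlated at 0.151 and 0.463 for collagen-rich tumors and at 0.202, -0.181 and 0.222 for collagen-poor ones. With the replicate number as a block, over 2 numbers, collagen-rich tumors had 3365 calls in a fit with 1 residual degree of freedom, and without the block the same samples had 257. Over 3 numbers, collagen-poor tumors had 55 calls with the block and 127 without. On deposited values, 1932 and 1149 genes were called. The alternatives on rankings by deposited or trimmed mean values, the tag interaction and the same samples without the block were chosen after seeing the data. Whole-number values limit genes of low level.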
